A study of Mus musculus with 9 samples.

Results

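The genes described here encode subunits of the mitochondrial respiratory chain and of ATP synthase, measured in mouse lung after melanoma exosomes had been injected. They were chosen by symbol: names beginning with Nduf followed by a, b, c, s or v, with Uqcr, with Cox and a digit between 4 and 8 or with Atp5, and the 4 genes Sdha to Sdhd. The choice gave 84 of the 12393 genes that had a probe set of their own on the array. Of these, 82 were tested among 9281 genes in all, and each of the 82 was detected on 9 of 9 arrays. Complex I had 34 genes, complex II 4, complex III 8, complex IV 16 and complex V 17, while the symbol rule also took in 5 complex I assembly factors (Ndufaf1, Ndufaf3, Ndufaf4, Ndufaf5 and Ndufaf7).

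Exosomes are small vesicles that cells release, here those of B16-F10, a mouse melanoma line that forms lung colonies. C57BL/6 mice received 10 µg of exosome protein through the tail vein and lungs were taken 24 h later (3 arrays), 48 h later (3 arrays) or from control mice (3 arrays), for which the sources used here name no treatment. The labels give 3 mice for each time point and an experiment run in triplicate. They leave unsaid if each array stands for a single animal or for pooled animals, and p-values therefore cover only the spread between these samples. The comparisons ask which lung genes differ after exosomes reach the blood and whether this depends on the time. The lung label was borne out by its markers, since 8 of 8 measured alveolar type 2 markers and 7 of 7 endothelial markers were detected on all arrays of at least 1 group. Present calls covered 69.9% to 72.6% of probe sets. The arrays fell apart by replicate number rather than by group: the leading principal component held 41.9% of the variance and set the 3 arrays numbered 1 (-25.96 to -24.45) apart from the other 6 (4.67 to 18.04). In whole tissue, fewer cells of a type and less RNA per cell cannot be told apart.

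The respiratory chain passes electrons from NADH (complex I) and succinate (complex II) through ubiquinone, complex III and cytochrome c to oxygen at complex IV, and complexes I, III and IV pump protons across the inner mitochondrial membrane. ATP synthase, complex V, lets the protons flow back and makes ATP. Most subunits are encoded in the nucleus, and some complex IV subunits have isoforms that differ between tissues: Cox6a2, Cox7a1 and Cox8b are the heart and skeletal muscle forms, Cox4i2 was described as the lung form, and Cox6a1, Cox7a2, Cox8a and Cox4i1 are the widely used ones.

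Mean levels of the respiratory chain genes lay close together in the 3 groups. Limma's moderated test called 0 of 15886 probe sets (0%), and 0 of the 82 genes, in each of the 3 comparisons at an adjusted p under 0.05. The smallest adjusted p was 1.00 in each comparison with limma, while an unadjusted p under 0.05 was reached by 185 probe sets at 24 h against control, 221 at 48 h against control and 281 at 48 h against 24 h. With the replicate number as a block in limma, 0 probe sets were called and the unadjusted counts were 553, 739 and 885. The estimated fold changes of the 82 genes ran from 0.828 to 1.15 at 24 h against control, from 0.829 to 1.31 at 48 h against control and from 0.844 to 1.45 at 48 h against 24 h. At 24 h the 95% confidence interval lay within a 1.5-fold change in either direction for 79 of 82 genes, compared with 82.7% of all genes tested. It did so for 75 of 82 genes at 48 h against control (81.1% of all genes) and for 75 of 82 at 48 h against 24 h (80.2% of all genes). The 3 genes whose interval was wider at 24 h were Cox7a1, Cox8b and Cox4i2. At 48 h against control these 3 were joined by Atp5md, Cox7c, Ndufaf4 and Ndufaf5.

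Small shifts were counted by complex. At 24 h, 57 of the 82 genes had a mean above control and 25 a mean below it, with a median log2 difference of 0.034, while over all genes tested 50.6% were above control and the median was 0.0016. Complex I had 26 of 33 tested genes above control (median 0.038), complex II 3 of 4 (0.085), complex III 5 of 8 (0.015), complex IV 9 of 15 (0.013), complex V 11 of 17 (0.032) and the assembly factors 3 of 5 (0.058). At 48 h the count was 48 above control and 34 below (median 0.0092, and -0.0050 over all genes), with complex V at 14 of 17 above (0.034), complex IV at 9 of 15 (0.039), complex I at 19 of 33 (0.0040), complex II at 1 of 4 (-0.023) and complex III at 2 of 8 (-0.050). Between the times, 30 genes were higher at 48 h and 52 lower than at 24 h, with a median of -0.037 against -0.0062 over all genes. Complex III had 7 of 8 genes and complex I 21 of 33 genes lower at 48 h than at 24 h. The comparisons with control share the control arrays, and the 48 h against 24 h comparison shares arrays with both.

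Single arrays moved these medians. At 24 h the median of the 82 genes was 0.0127 without 24 h replicate 2 and 0.0665 without 24 h replicate 3. It was 0.0795, with 68 genes above control, when each array was centred on its median. The authors' series table gives the same arrays other group names than the sample files do. Under those names, 24 h against control sets the control files against the 48 h files, and the median was -0.0092. For complex I the median at 24 h was 0.020 without 24 h replicate 2 and 0.065 without 24 h replicate 3, and for complex II it was 0.0167 without 24 h replicate 1. The complex III median lay between -0.016 (without 24 h replicate 2) and 0.053 (without 24 h replicate 3), and its sign turned on leaving out any of 4 single arrays. Complex IV stood at 0.069 without 24 h replicate 3, complex V at -0.022 without control replicate 1 and the assembly factors at -0.0064 without control replicate 3.

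The comparison of 48 h with control had its lowest and highest medians for complexes I to V when a 48 h array was left out. Complex V lay between 0.0046 without replicate 2 and 0.094 without replicate 3, complex IV between -0.0027 and 0.082, complex I between -0.024 and 0.045 and complex II between -0.049 and 0.017, with the same arrays left out. Complex III was at -0.102 without 48 h replicate 1 and at 0.028 without 48 h replicate 3. Between the times, complex III was at -0.118 without 48 h replicate 1 and 0.041 without 48 h replicate 3, and complex I was at -0.069 without 24 h replicate 3 and -0.0036 without 24 h replicate 2. Without 48 h replicate 3 the medians of complex IV (0.056) and complex V (0.052) between the times were also above 0.

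The standard deviation of single genes within a group had a median of 0.114 log2 units over the 82 genes (range 0.032 to 0.414) and of 0.181 over all genes tested. Set against each gene's own 9-array mean, the median deviation of the 82 genes was 0.028, 0.067 and -0.031 on the 24 h arrays, 0.041, 0.079 and -0.087 on the 48 h arrays and -0.021, 0.003 and -0.040 on the control arrays. The 3 groups overlapped, and the lowest array, 48 h replicate 3, and the highest, 48 h replicate 2, belonged to the same group. Without 48 h replicate 2 the count of genes above control at 48 h was 31, and without 48 h replicate 3 it was 56. Between the times the count of genes higher at 48 h was 17 without 48 h replicate 2, 20 without 24 h replicate 3 and 43 without 48 h replicate 3. Under the names of the series table, 48 h against 24 h sets the 24 h files against the control files, and the median was 0.033.

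**Figure D1:**
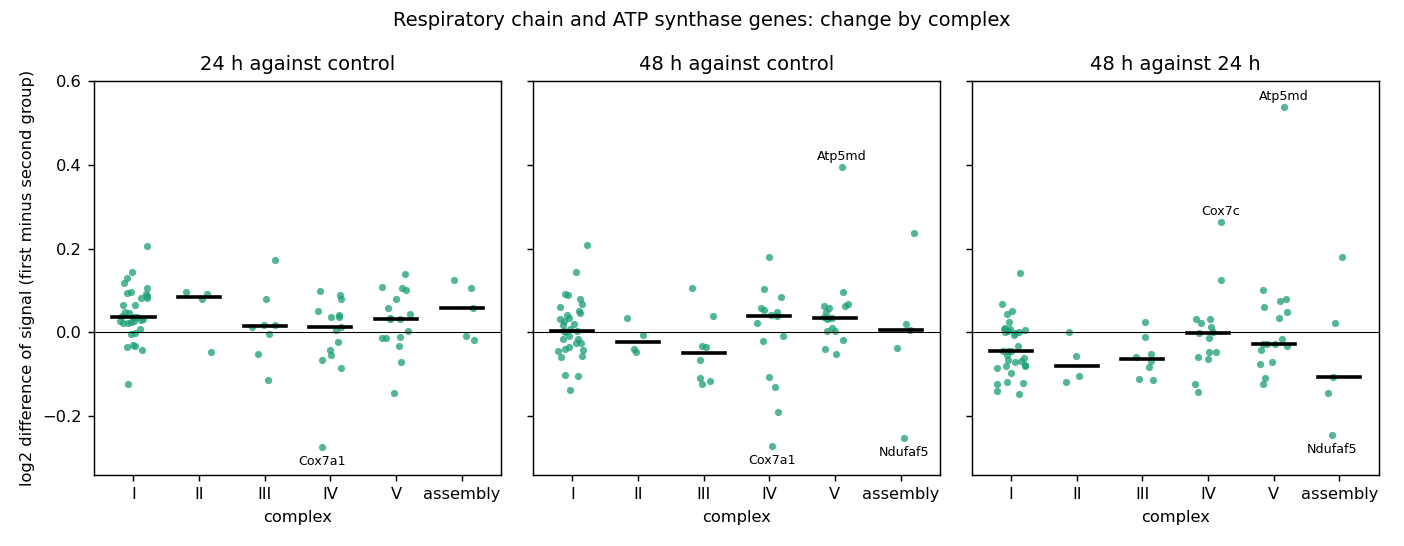
Each point is the log2 difference of mean signal for 1 gene, in columns by complex (assembly factors last), for 24 h against control, 48 h against control and 48 h against 24 h; black bars are column medians. Nearly all points lie within 0.3 of 0, Atp5md stands at 0.54 in the right panel and Cox7a1 at -0.27 in the left panel.

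**Figure D2:**
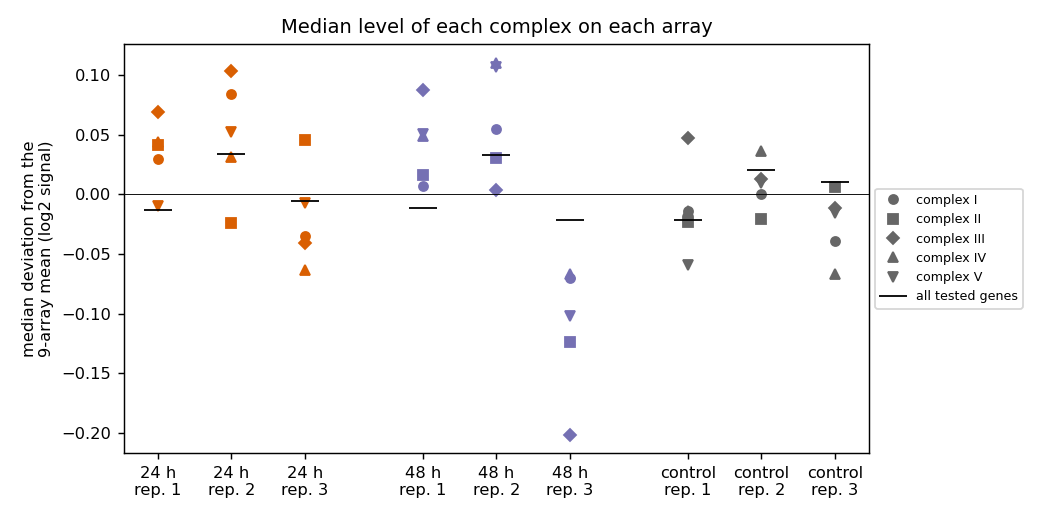
Median deviation of each complex from its genes' 9-array means (vertical axis, log2 signal) on each array, with 24 h, 48 h and control arrays from left to right; black dashes give all tested genes. All 5 complexes were below 0 on 48 h replicate 3, the lowest being complex III at -0.202, and the groups overlap.

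Arrays were also compared in pairs of the same replicate number, as numbered in the sample files. The median log2 difference of the 82 genes at 24 h was 0.040 in pair 1, 0.074 in pair 2 and 0.0039 in pair 3. At 48 h against control the medians of the pairs were 0.027, 0.056 and -0.063, so pair 3 had the opposite sign. In pair 3, 24 of the 82 genes were above control at 48 h, against 49 in pair 1 and 60 in pair 2. At 24 h, 21 of 82 genes (25.6%) were above control in all 3 pairs and 5 (6.10%) below, where all genes tested gave 11.1% and 10.4%. For 48 h against control, 10 genes (12.2%) were above in all 3 pairs and 8 (9.76%) below, where all genes tested gave 11.6% and 12.3%. At 48 h against 24 h, 6 genes were higher in all 3 pairs and 22 (26.8%) lower, where all genes tested gave 12.5% and 15.3%. The groups compared at 24 h and between the times share the 24 h arrays, so these counts are not independent of each other.

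Replicate number went with larger differences than treatment did. For 69 of the 82 genes (84.1%), the range of the 3 number means exceeded the range of the 3 group means, and the same held for 79.8% of all genes tested. The median range was 0.167 log2 units by number and 0.091 by group. The 3 arrays numbered 1 lay above the other 6 for 10 genes and below them for 7, where 9.73% and 13.3% of all genes tested did so. Sdhb, the iron-sulfur subunit of complex II, had log2 signals of 11.55, 11.20 and 11.13 at 24 h, 11.36, 11.17 and 11.00 at 48 h and 11.39, 11.17 and 11.09 in control lungs. Replicate 1 was highest in each group. Sdha, the flavoprotein that oxidises succinate, ran the other way, with 10.73, 11.27 and 11.01 at 24 h, 10.65, 11.14 and 11.05 at 48 h and 10.76, 10.97 and 11.01 in control lungs. Atp5c1, the gamma subunit that turns inside ATP synthase, averaged 12.35 on the arrays numbered 1, 12.12 on those numbered 2 and 12.00 on those numbered 3, against group means of 12.18 at 24 h, 12.15 at 48 h and 12.14 in control lungs. The sources used here do not say what the replicate number stands for, and its part in the values was not tested.

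**Figure D3:**
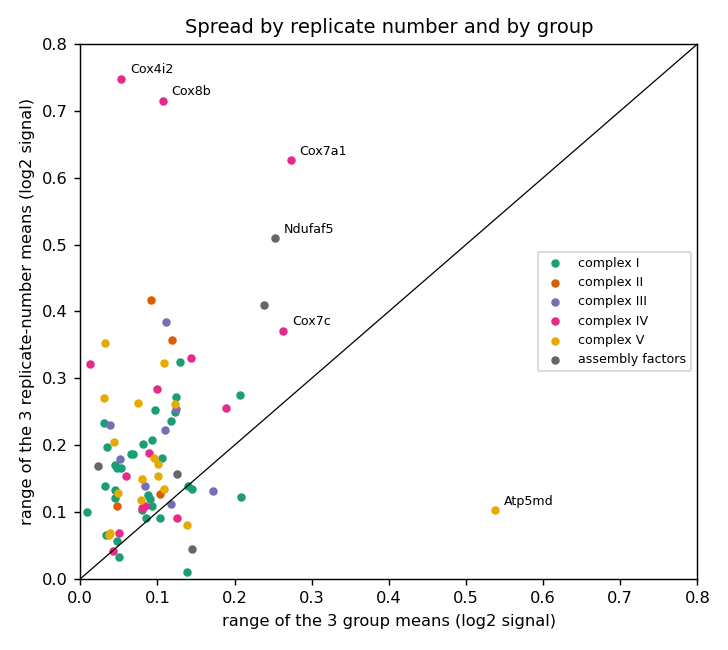
For each of the 82 genes, the range of its 3 group means (horizontal axis) is plotted against the range of its 3 replicate-number means (vertical axis), both in log2 signal, with colours for complexes and a line of equality. Most points (69 of 82) lie above the line, led by Cox4i2 and Cox8b, whereas Atp5md lies far below it.

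In complex I no catalytic core subunit passed the test. Ndufs8, an iron-sulfur subunit that passes electrons towards ubiquinone, had the largest absolute change of this complex at 24 h, with log2 signals of 11.59, 11.67 and 11.32 at 24 h, 11.33, 11.58 and 11.23 at 48 h and 11.39, 11.35 and 11.22 in control lungs. The groups overlapped, since 24 h replicate 3 lay below 2 of the 3 control arrays. The fold at 24 h was 1.15 (95% CI 0.937 to 1.42, limma adjusted p = 1.00), and with the replicate block limma gave an unadjusted p of 0.049 and an adjusted p of 0.999. It was the 1 member under 0.05 unadjusted with the block at 24 h, beside 2.93% of all genes tested with the block. Without the block there were 0 such members, beside 1.07% of all genes tested with an unadjusted limma p under 0.05. At 48 h Ndufs8 was at 1.04-fold of control (0.845 to 1.28). Ndufs7, its neighbour in the same electron path, was at 1.08-fold at 24 h (0.890 to 1.32) and 1.00-fold at 48 h (0.820 to 1.22). Ndufv1, which binds NADH, was at 1.03-fold (0.865 to 1.22) and 0.932-fold (0.785 to 1.11), and Ndufs1, the largest iron-sulfur subunit, at 1.06-fold (0.893 to 1.26) and 1.01-fold (0.852 to 1.21).

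Accessory subunits surround that core. Ndufb2 was at 1.10-fold at 24 h (0.920 to 1.33) and 1.11-fold at 48 h (0.921 to 1.33), Ndufa10 at 1.08-fold at 24 h (0.907 to 1.28), and Ndufb10 at 0.909-fold at 48 h (0.770 to 1.07). Ndufs4, an accessory subunit needed for a stable complex I, had log2 signals of 9.66, 9.84 and 9.75 at 24 h, 9.91, 9.86 and 9.92 at 48 h and 9.67, 9.50 and 9.89 in control lungs. All 3 arrays at 48 h lay above the 3 at 24 h, but control replicate 3 lay as high as the 48 h arrays. The fold was 1.10 at 48 h against 24 h (0.914 to 1.33) and 1.16 at 48 h against control (0.956 to 1.40). The other tested probe sets of Ndufs4 differed by -0.046 and 0.0020 log2 units at 48 h against 24 h, where the one used differed by 0.14. Ndufab1, the mitochondrial acyl carrier protein, which is also a complex I subunit, was lower on every 48 h array (10.69, 10.60 and 10.67) than on any 24 h array (10.77, 10.70 and 10.75), at 0.943-fold (0.814 to 1.09). Its 3 tested probe sets disagreed: they ran from -0.085 to 0.28 log2 units at 48 h against 24 h and from -0.17 to 0.19 at 24 h against control. The probe sets of Ndufa12, an accessory subunit, ran from -0.068 to 0.25 at 48 h against 24 h.

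Among the assembly factors, Ndufaf3 had 9.58, 9.52 and 9.53 at 48 h and 9.61, 9.80 and 9.66 at 24 h. The groups did not overlap, and the fold was 0.904 (0.775 to 1.06). Ndufaf5 was at 0.839-fold of control at 48 h (0.617 to 1.14), and limma with the replicate block gave an unadjusted p of 0.038 and an adjusted p of 0.999, where 4.16% of all genes tested with the block were under 0.05 unadjusted. With the block, 2 members, Atp5md and Ndufaf5, were under 0.05 at 48 h against control and the same 2 at 48 h against 24 h, beside 4.9% of all genes at 48 h against 24 h. The number means of Ndufaf5 ran from 7.10 to 7.61, a range of 0.51, and its group means had a range of 0.25. Ndufa4 was counted here by its symbol with complex I, although later work places its protein in complex IV, and it was at 1.02-fold of control at both times. Ndufb1, an accessory subunit, was not tested. It was detected on 2 of 9 arrays, and its signals were 44.6 to 93.8.

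Complex II is also an enzyme of the citric acid cycle. Sdhd, a membrane anchor, was at 1.07-fold of control at 24 h (0.904 to 1.27) and had the largest absolute moderated t of the complex. Sdhc, the other anchor, was at 0.969-fold of control at 48 h (0.825 to 1.14). Sdha and Sdhb were at 1.07-fold (0.813 to 1.40) and 1.06-fold (0.836 to 1.33) at 24 h.

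In complex III, Uqcrq, a small subunit of the membrane part, was 1 of the 2 genes whose 24 h arrays did not overlap with control. It had log2 signals of 10.99, 11.10 and 10.88 at 24 h, 11.01, 10.90 and 10.85 at 48 h and 10.86, 10.85 and 10.74 in control lungs. The lowest 24 h value exceeded the highest control value by a small margin, and the 48 h arrays overlapped with both groups. The fold was 1.13 at 24 h (0.956 to 1.33, limma unadjusted p = 0.137, adjusted p = 1.00) and 1.08 at 48 h (0.912 to 1.27). The other gene was Atp5h, subunit d of the stalk of ATP synthase, with 12.33, 12.33 and 12.23 at 24 h, 12.28, 12.25 and 12.15 at 48 h and 12.20, 12.09 and 12.18 in control lungs. Its fold was 1.10 at 24 h (0.946 to 1.28), and its other tested probe set gave a log2 difference of -0.021 where the one used gave 0.14. These 2 higher members were set beside 2.13% of all genes tested with every 24 h array above every control array. There were 0 lower members, beside 1.79% of all genes.

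Uqcrfs1, the Rieske iron-sulfur protein that takes electrons from ubiquinol, was at 0.925-fold at 24 h (0.742 to 1.15) and 0.918-fold at 48 h (0.736 to 1.14). Uqcrc1, a core subunit, was at 0.997-fold at 24 h (0.849 to 1.17) and 0.922-fold at 48 h (0.785 to 1.08). Between the times Uqcrc1 was at 0.924-fold (0.787 to 1.09) and Uqcrc2, the other core subunit, at 0.944-fold (0.804 to 1.11), and both were lower at 48 h in all 3 pairs. Uqcr10 was at 1.06-fold at 24 h (0.793 to 1.41). Uqcrb, the brightest member of all, had signals of 9549.6 to 11370.3 over the 9 arrays before quantile normalisation. The dimmest tested member was Cox7c, with 64.2 to 131.3. Brightness is not comparable between probe sets.

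**Figure D4:**
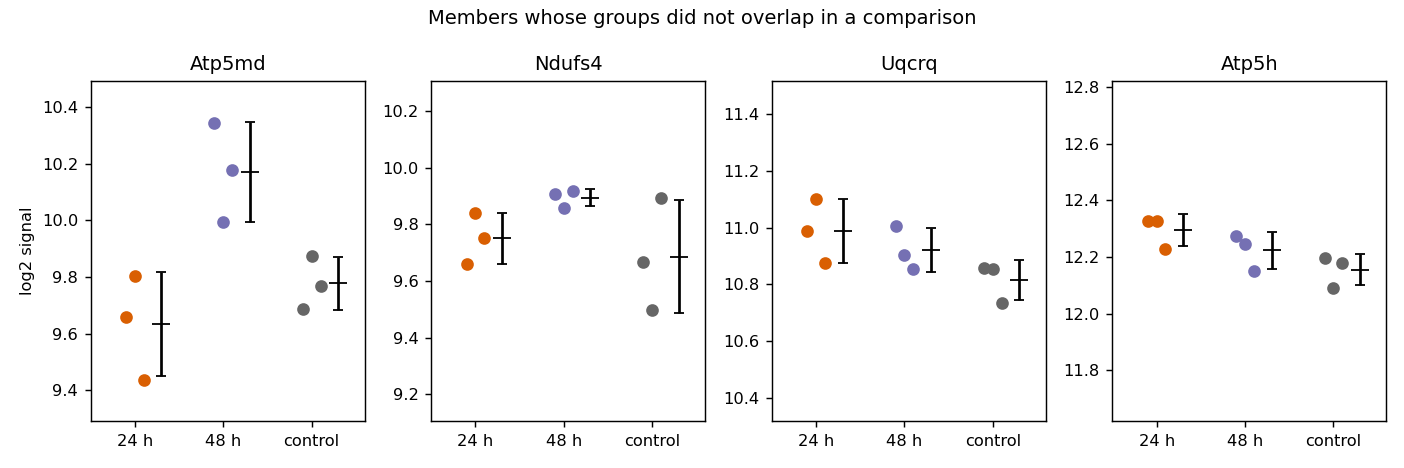
Log2 signal of Atp5md, Ndufs4, Uqcrq and Atp5h on each array (points; 24 h, 48 h and control from left to right), with the mean and SD of each group (n = 3) as bars. Atp5md averaged 10.17 at 48 h, 9.63 at 24 h and 9.78 in control lungs, while the groups of the other genes lie closer together.

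Atp5md was the gene with the largest difference. It lies on chromosome 19 (47083471 to 47090647, GRCm38.p6, minus strand) and encodes a small membrane subunit of ATP synthase, also called DAPIT or Usmg5. Its log2 signals were 9.66, 9.80 and 9.44 at 24 h, 10.34, 9.99 and 10.18 at 48 h and 9.69, 9.88 and 9.77 in control lungs. All 3 arrays at 48 h lay above the other 6, and 24 h and control overlapped. The fold at 48 h was 1.31 against control (95% CI 1.07 to 1.62, limma unadjusted p = 0.016, adjusted p = 1.00) and 1.45 against 24 h (1.18 to 1.79, limma unadjusted p = 0.0028, adjusted p = 1.00). At 24 h it was 0.905-fold of control (0.734 to 1.12). The same-number differences at 48 h against 24 h were 0.68, 0.19 and 0.74 log2 units, and at 48 h against control 0.66, 0.12 and 0.41. Leaving out single arrays moved the log2 difference at 48 h against control between 0.31 and 0.48. The gene had 1 tested probe set, so no other probe set of the gene could be set beside it.

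In both comparisons with 48 h, Atp5md was the 1 member of 82 with an unadjusted limma p under 0.05, where 1.27% of all genes tested had one at 48 h against control and 1.48% at 48 h against 24 h. At 48 h against control it was also the 1 member whose groups did not overlap upwards, beside 2.31% of all genes, and 0 members were separated downwards, beside 2.1%. Between the times, Atp5md and Ndufs4 were separated upwards, beside 2.42% of all genes, and Ndufab1 and Ndufaf3 downwards, beside 1.99%.

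No catalytic subunit of ATP synthase passed the test. Atp5b, the beta subunit that makes ATP, was at 0.991-fold at 24 h (0.808 to 1.22) and 1.04-fold at 48 h (0.851 to 1.28), and Atp5a1, the alpha subunit, at 1.02-fold (0.829 to 1.26) and 1.00-fold (0.812 to 1.24). A dimmer probe set of Atp5a1 gave log2 differences of 0.33 at 24 h (SE 0.28) and 0.32 at 48 h (SE 0.28), and another gave 0.076 and 0.0067. Atp5c1 was at 1.02-fold and 1.00-fold, and Atp5o, which joins the stalk to the catalytic head, at 1.08-fold (0.903 to 1.29) and 1.02-fold (0.856 to 1.22). The genes Atp5g1, Atp5g2 and Atp5g3 encode the same mature ring subunit and were at 1.02-fold, 1.04-fold and 0.992-fold at 24 h and at 1.07-fold, 0.965-fold and 0.974-fold at 48 h. Between the times, Atp5d, the delta subunit, was at 0.919-fold (0.745 to 1.13) and Atp5pb, subunit b of the stalk, at 1.07-fold (0.888 to 1.30).

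Complex IV held the genes that varied most between arrays, and these were tissue-type isoforms. Cox7a1, the heart and skeletal muscle form of subunit VIIa, had log2 signals of 8.17, 7.77 and 7.66 at 24 h, 8.19, 8.17 and 7.24 at 48 h and 8.23, 8.36 and 7.82 in control lungs. Its lowest value was on 48 h replicate 3, and the groups overlapped. The fold was 0.828 at 24 h (0.549 to 1.25) and 0.829 at 48 h (0.550 to 1.25), the lowest fold of any member in each of these comparisons, and neither passed the test. Without 48 h replicate 3 the log2 difference at 48 h was 0.042, where all arrays gave -0.27. Cox8b, the muscle form of subunit VIII, had 8.72, 8.19 and 8.03 at 24 h, 8.50, 8.55 and 7.71 at 48 h and 8.58, 8.59 and 7.92 in control lungs. Replicate 3 was lowest in every group for Cox7a1 and for Cox8b. Cox6a2, the muscle form of subunit VIa, had 9.69, 9.46 and 9.33 at 24 h, 9.54, 9.67 and 9.24 at 48 h and 9.62, 9.53 and 9.31 in control lungs, again lowest on replicate 3. Cox4i2 had 8.58, 8.28 and 7.77 at 24 h, 8.58, 8.35 and 7.80 at 48 h and 8.44, 8.59 and 7.77 in control lungs. Its number means were 8.53, 8.41 and 7.78, the widest range by number of the 82 genes (0.75), while its group means differed by 0.053.

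The widely used forms of the same subunits were steadier, and their signal was also higher. Mean log2 signals were 12.85, 11.42, 12.64 and 12.51 for Cox7a2, Cox8a, Cox6a1 and Cox4i1. They were 7.96, 8.31, 9.49 and 8.24 for Cox7a1, Cox8b, Cox6a2 and Cox4i2. Of other dim members, Cox7c and Ndufaf5 had a within-group SD of 0.27, Ndufaf1 of 0.11 and Ndufaf7 of 0.093. The part of signal level in the spread was not tested. Cox7a2 ran from 12.74 to 12.95 over the 9 arrays and was at 1.04-fold of control at 24 h (0.890 to 1.21) and 1.06-fold at 48 h (0.911 to 1.23). Cox8a ran from 11.29 to 11.53 and was at 1.06-fold and 1.02-fold, and Cox6a1 was at 1.06-fold and 1.03-fold. Cox4i1 was at 1.03-fold (0.867 to 1.21) and 1.04-fold (0.881 to 1.23). Of the other isoforms, Cox6b1 was at 1.03-fold and 1.04-fold, the testis form Cox6b2 at 0.955-fold (0.744 to 1.23) and 0.877-fold (0.683 to 1.13), and Cox7a2l at 1.01-fold and 0.914-fold. Cox8c was not tested, with detection on 3 of 9 arrays and signals between 126.6 and 198.6. Cox5a, a subunit without such an isoform, was at 0.985-fold at 24 h (0.843 to 1.15) and 1.07-fold at 48 h (0.920 to 1.26), and at 1.09-fold at 48 h against 24 h (0.934 to 1.27). Cox7c, a small structural subunit, was at 1.20-fold at 48 h against 24 h (0.884 to 1.63) on a dim probe set. A dimmer probe set of the same gene gave a log2 difference of 0.41 there (limma unadjusted p = 0.014, adjusted p = 1.00) and -0.36 at 24 h against control (limma unadjusted p = 0.027, adjusted p = 1.00).

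Muscle markers varied across the arrays alongside the muscle isoforms. The summed signal of 12 of 12 tested cardiac muscle markers, among them Myh6, Tnnt2 and Actc1, was 14866.9, 12295.9 and 11805.4 at 24 h, 17280.1, 16470.6 and 7839.7 at 48 h and 18219.3, 16811.5 and 11563.2 in control lungs. As with Cox7a1 and Cox8b, the sum was lowest on replicate 3 in each group and lowest of all on 48 h replicate 3. Some single markers departed from the sum. At 24 h, Nppa and Mybpc3 were highest on replicate 3. Myh6 and Pln were lowest on replicate 1 there, and Myl4 and Actn2 on replicate 2. In control lungs, Nppa was highest on replicate 3 and Ryr2 lowest on replicate 1. None of the 12 was at 0, 12 of 12 were below control at 24 h and 11 of 12 at 48 h, with a median log2 difference of -0.28 at each time, and limma called 0 of them. Of 8 skeletal muscle markers, 2 were tested (Mylpf and Ckm), and their sum was 1968.2, 247.0 and 266.8 at 24 h, 145.6 to 425.6 at 48 h and 236.0 to 458.0 in control lungs. The high value was on 24 h replicate 1. Cox8b and Cox6a2 were also highest on that array, by small margins (8.72 against 8.59, and 9.69 against 9.67). Cox7a1 was not: it had 8.17 there and was highest on control replicate 2, at 8.36. The summed signal of 6 tested smooth muscle markers was also lowest on replicate 3 in each group. It was 6890.6 to 10107.4 at 24 h, 8306.4 to 11187.3 at 48 h and 7220.9 to 9931.9 in control lungs. Cox4i2, described as the lung form, was lowest on replicate 3 in each group too. Low values on replicate 3 were thus not particular to the cardiac markers. The summed signal of 7 tested fat markers was 5121.4 to 7714.8 at 24 h, 5737.4 to 6295.0 at 48 h and 3879.1 to 8729.7 in control lungs. The part of muscle or fat tissue in the respiratory chain values was not tested.

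**Figure D5:**
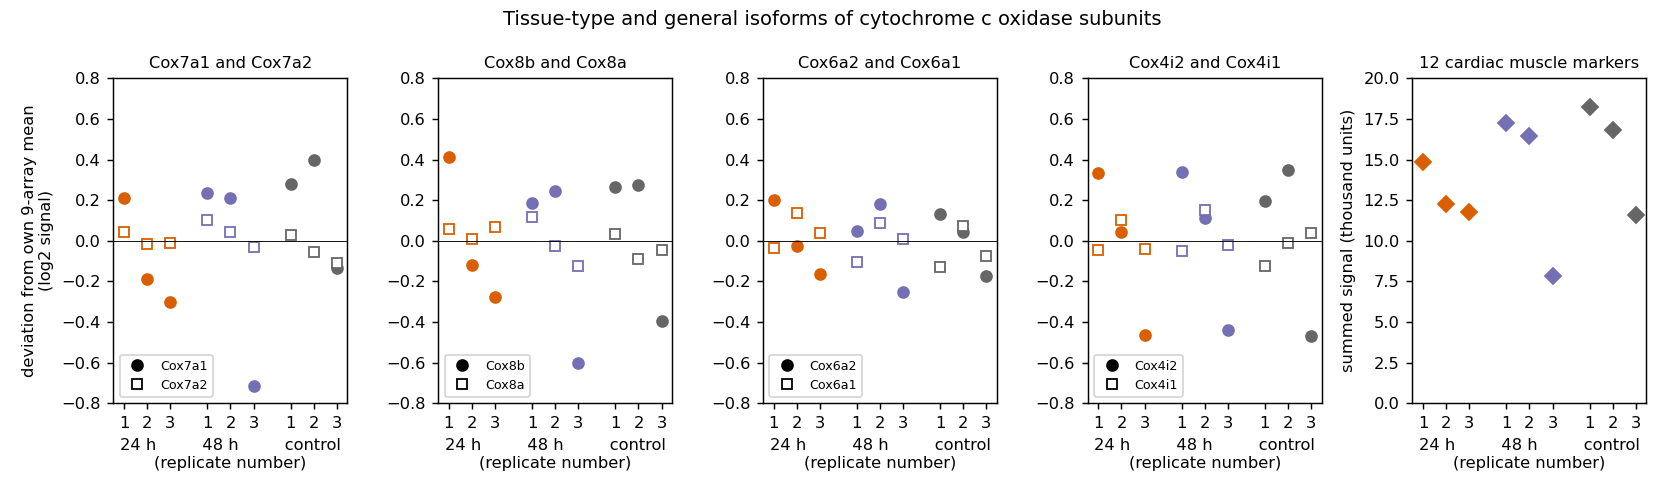
Deviation of each isoform from its own 9-array mean (vertical axis, log2 signal) on each array for 4 pairs of complex IV isoforms, filled circles for the tissue-type form and open squares for the general form; the last panel gives the summed signal of 12 cardiac muscle markers. Arrays are numbered by replicate, with 24 h, 48 h and control from left to right, and replicate 3 is low for each tissue-type form and for the cardiac sum.

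The start regions of the Cox7a1 and Cox7a2 pair, of the Cox8b and Cox8a pair, of Cox6a1 alone and of Atp5md are given. They are shown because the muscle isoforms varied together between arrays and more than their general partners, because Cox6a1 holds both motifs described here, and because Atp5md had the largest difference. Each runs from 250 bases before to 50 bases after the start of transcription, 5′ to 3′ on the gene's strand, as given by RefSeq for GRCm38.p6. The Cox7a2 window lies inside the annotated gene, which spans 79755241 to 79771422, so the outer 5′ end of that gene is not covered. Capitals mark matches to motifs of factors known to act on respiratory genes, on either strand: GCGCATGCG for NRF1 and CCGGAAG for the ETS factors that include GABP, where a match on the opposite strand reads as the reverse complement. Cox7a1 is at chr7:30183921-30184220 (plus strand), Cox7a2 at chr9:79759804-79760103 (minus), Cox8b at chr7:140900397-140900696 (minus), Cox8a at chr19:7217567-7217866 (minus), Cox6a1 at chr5:115348909-115349208 (minus) and Atp5md at chr19:47090598-47090897 (minus).
Cox7a1: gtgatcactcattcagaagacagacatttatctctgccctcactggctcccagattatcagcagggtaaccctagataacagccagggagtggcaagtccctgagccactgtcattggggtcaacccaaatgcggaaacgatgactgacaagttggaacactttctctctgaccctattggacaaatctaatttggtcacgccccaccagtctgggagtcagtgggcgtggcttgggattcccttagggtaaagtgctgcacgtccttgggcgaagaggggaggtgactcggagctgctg
Cox7a2: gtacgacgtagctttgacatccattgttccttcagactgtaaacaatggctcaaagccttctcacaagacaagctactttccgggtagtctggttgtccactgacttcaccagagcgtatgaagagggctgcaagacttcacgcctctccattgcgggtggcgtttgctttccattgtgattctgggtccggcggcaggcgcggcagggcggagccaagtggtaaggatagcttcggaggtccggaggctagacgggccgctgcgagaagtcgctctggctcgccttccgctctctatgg
Cox8b: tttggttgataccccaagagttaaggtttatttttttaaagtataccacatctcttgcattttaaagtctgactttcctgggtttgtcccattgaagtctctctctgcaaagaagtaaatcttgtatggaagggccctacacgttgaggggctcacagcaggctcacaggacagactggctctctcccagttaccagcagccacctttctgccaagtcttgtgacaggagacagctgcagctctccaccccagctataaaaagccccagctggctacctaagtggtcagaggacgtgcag
Cox8a: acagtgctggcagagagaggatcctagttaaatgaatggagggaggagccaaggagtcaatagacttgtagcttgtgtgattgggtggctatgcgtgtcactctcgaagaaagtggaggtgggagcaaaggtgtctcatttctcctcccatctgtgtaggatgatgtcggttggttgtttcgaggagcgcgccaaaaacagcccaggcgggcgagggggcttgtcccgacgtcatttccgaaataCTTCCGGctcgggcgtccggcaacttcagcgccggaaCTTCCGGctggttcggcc
Cox6a1: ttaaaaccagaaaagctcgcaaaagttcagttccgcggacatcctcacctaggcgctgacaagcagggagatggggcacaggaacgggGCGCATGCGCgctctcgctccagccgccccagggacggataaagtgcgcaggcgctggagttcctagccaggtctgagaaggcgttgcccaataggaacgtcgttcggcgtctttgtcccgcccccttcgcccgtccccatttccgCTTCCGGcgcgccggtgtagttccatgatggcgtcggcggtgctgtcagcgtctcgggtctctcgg
Atp5md: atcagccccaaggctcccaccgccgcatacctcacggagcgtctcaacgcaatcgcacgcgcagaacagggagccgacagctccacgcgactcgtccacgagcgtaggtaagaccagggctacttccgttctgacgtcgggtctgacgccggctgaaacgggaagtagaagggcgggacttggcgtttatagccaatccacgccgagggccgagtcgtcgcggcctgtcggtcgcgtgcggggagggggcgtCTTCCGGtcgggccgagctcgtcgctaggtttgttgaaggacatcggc
In these 2 pairs the muscle form had fewer CpG dinucleotides in this window than the general form: 7 in Cox7a1 and 20 in Cox7a2, and 2 in Cox8b and 19 in Cox8a. GC content was 53% in Cox7a1 and 56.7% in Cox7a2, and 48.3% in Cox8b and 56% in Cox8a. Cox6a1 had 32 CpG dinucleotides and held a stretch that matched the NRF1 motif on both strands with overlap, plus a match to the ETS motif. Cox8a held the ETS motif at 2 places, Atp5md held it once, and Cox7a1, Cox8b and Cox7a2 held no match to the letters searched.

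A start region was available for 69 of the 82 genes and for 7499 of the 9281 genes tested. The 4 motifs searched on both strands were those for NRF1 and ETS above, AAGGTCA for the oestrogen-related receptors (ERR) and AAGATGG for YY1. None of these motifs contains another, and a gene was counted once for a motif whatever its number of matches. NRF1's motif was present in 9 members (13.0%), 3.64% of tested genes and 1.81% of all 27025 genes in the table. The ETS motif was present in 17 members (24.6%), 18.1% of tested genes and 9.12% of all. ERR's motif was present in 7 members (10.1%), 3.04% of tested genes and 4.66% of all, and YY1's in 9 members (13.0%), 7.28% of tested genes and 6.48% of all. At least 1 motif was present in 34 members (49.3%), 28.8% of tested genes and 20.4% of all. By complex, the ERR motif was found in 4 of 15 complex V genes and 0 of 11 complex IV genes, and the YY1 motif in 6 of 30 complex I genes. A match is a description of letters in this window and says nothing about binding.

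Genes of related mitochondrial functions were counted in the same way, and limma called 0 of them. Of 74 mitochondrial ribosome genes, 55 were above control at 24 h (median log2 difference 0.038) and 41 at 48 h (0.022). An unadjusted limma p under 0.05 was reached by Mrpl15 at 1.35-fold (1.07 to 1.71) and Mrpl1 at 0.799-fold (0.643 to 0.994) at 24 h, and by Mrpl33 at 1.33-fold (1.06 to 1.68) at 48 h against 24 h. Rps27, a cytosolic ribosomal protein gene, was at 1.87-fold of control at 48 h (1.21 to 2.88, limma unadjusted p = 0.0092) and at 1.58-fold at 48 h against 24 h (1.03 to 2.44, limma unadjusted p = 0.039). Over all genes tested, 1.07% were under 0.05 at 24 h against control, 1.27% at 48 h against control and 1.48% at 48 h against 24 h. Of 15 genes of the citric acid cycle and pyruvate dehydrogenase, 7 were above control at 24 h (-0.0032) and 8 at 48 h (0.0019). Of 17 regulators of mitochondrial biogenesis, such as Tfam and Esrra, 5 were above control at 24 h (-0.046) and 9 at 48 h (0.00085). Coenzyme Q synthesis genes were above control in 6 of 8 cases at 24 h (0.054) and 3 of 8 at 48 h (-0.069). Assembly factors not taken in by the symbol rule were above control in 16 of 27 cases at both times (0.046 at 24 h and 0.036 at 48 h), and other subunits and carriers, such as cytochrome c and the adenine nucleotide carriers, in 11 of 16 at 24 h (0.017) and 6 of 16 at 48 h (-0.028). Cytosolic ribosome genes, which serve protein synthesis outside mitochondria, were above control in 19 of 43 cases at 24 h (-0.0099) and 21 of 43 at 48 h (-0.0067). Single arrays moved these medians too. The coenzyme Q median was 0.0033 without 24 h replicate 2 and 0.171 without 24 h replicate 3 at 24 h, and 0.030 without 48 h replicate 3 at 48 h. The citric acid cycle median at 24 h turned sign on leaving out any of 5 single arrays. For 48 h against control the median of each of these 7 lists turned sign on leaving out at least 1 array.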

How the data were processed

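Lung RNA was measured on 9 Affymetrix arrays, 3 in each of 3 groups. The authors deposited 1 file per array with the signal intensity, detection call and detection p-value of 22690 probe sets, per the file headers. Trimmed mean signals of 500.1 to 500.2 on every array show that the authors scaled the intensity values. The detection p-value was deposited beside each intensity. The sources used here name no software or summary method. Median signals were 173.5 to 184.85, and the number of arrays limits the precision.

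After 16 was added to each linear signal, log2 values were quantile normalised between arrays, so a fold understates the change of dim genes. Control probe sets (64) did not enter. A probe set was tested when its detection p was under 0.05 on all arrays of at least 1 group. A single symbol was given for 20393 probe sets, more than 1 for 691 and none for 1606, and updating through Entrez identifiers changed 0 symbols. Of the members' 156 probe sets, 145 were tested; 8 probe sets that name a member among several symbols were left out. The symbol rule was applied to symbols given alone for a probe set; Cox7b, Cox7b2 and Ndufa4l2 are not among these and were not analysed here. Each gene was represented by its brightest tested probe set (mean over 9 arrays). Of 43 members with several tested probe sets, all had the same sign in 23 (24 h against control), 27 (48 h against control) and 22 (48 h against 24 h). The columns used were the signal, the detection call, the detection p-value and the name inside each file.

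Testing used R 4.3.3 and limma 3.58.1, two-sided, with lmFit and eBayes on all 9 arrays and a mean per group, and Benjamini-Hochberg adjustment over 15886 probe sets at 0.05. The code was tested on simulated data. Members and lists were chosen with earlier results of these data known, so lists have counts and medians but no test. Named genes were the 3 members of complexes I, III, IV and V, and the 1 of complex II, with the largest absolute moderated t in each comparison, members whose groups did not overlap, fixed core subunits and isoform sets, untested members, the brightest and dimmest member, and members whose probe sets disagreed in sign by over 0.3 log2 units. Ndufaf4, Ndufaf5 and the dim Cox7c probe set were named after their values were seen. Replicate numbers were taken as pairs: deviations from group means correlated at 0.275 to 0.651 over 9 same-number pairs and at -0.561 to 0.308 over the 18 pairs that differed in both. Groups came from the labels, which matched the names inside 9 of 9 files. For the control files the name inside begins with 0 h. The columns of the authors' series table carry other labels (24 h for the control files, 48 h for the 24 h files, control for the 48 h files, with values equal within 0.051 units except for 273 in 1 column of 24 h values), and were an alternative. Replicate numbers 1 and 2 of the control files are exchanged there, and the numbers used here are those of the sample files. Other alternatives were the replicate block, offsets of 1 and 64, other normalisation, filters and probe set rules, a trended robust prior, no arrays numbered 1, and each array left out. Promoter sequences came from RefSeq.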

Additional observations from a re-analysis of the deposited data

How the results depend on the processing

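Across 20 alternatives, the number of members called stayed at 0 in every comparison. With the replicate number as a block, limma called 0 members, and those with an unadjusted p under 0.05 numbered 1 at 24 h against control, 2 at 48 h against control and 2 at 48 h against 24 h, beside 2.93%, 4.16% and 4.9% of all genes tested. Leaving out 1 array at a time moved the members' median log2 difference between 0.0127 and 0.0665 at 24 h against control, between -0.0206 and 0.0560 at 48 h against control and between -0.0672 and 0.0027 at 48 h against 24 h. The number of members above control ran from 48 to 64 at 24 h and from 31 to 56 at 48 h, and the number higher at 48 h than at 24 h from 17 to 43. With the labels of the authors' series table the medians were -0.0092, 0.0369 and 0.0334. These labels rename the groups of the same arrays. In that order they set control files against 48 h files, 24 h files against 48 h files, and 24 h files against control files. The sign turned at 24 h against control and at 48 h against 24 h, where other files stand under the same name. Centring each array on its median gave medians of 0.0795, 0.0570 and -0.0299, with 68 and 66 members above control at 24 h and 48 h, where quantile normalisation gave 57 and 48. Without normalisation between arrays 63 and 50 members were above control, and 24 were higher at 48 h than at 24 h. Without the arrays numbered 1 the medians were 0.0400, -0.0024 and -0.0467, with 38 members above control at 48 h. Apart from the renamed groups, the cause of these differences was not tested. Of 2700 values of named members, 2624 moved by less than the spread between replicates and 280 changed sign. These counts include the renamed groups of the series table. The 3 arrays per group and the scatter between replicate numbers limit what could be detected.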
